A study of Mus musculus with 3 samples.

Results

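The small proline-rich (SPRR) genes described here were *Sprr1a*, *Sprr1b*, *Sprr2d*, *Sprr2h* and *Sprr3*, taken by symbol from the 32285 genes of a spatial transcriptome of mouse skin wounds. The annotation holds 15 genes whose symbol starts with Sprr, of which these 5 are a part. They were chosen by symbol with their UMI counts, day levels and spots in these sections already known, and so selected on these values, and their levels are given as a description, with no test. Full-thickness punch wounds were made in the back skin of adult male C57BL/6J mice, and 1 frozen section each from Day 3, Day 7 and Day 14 after wounding was placed on a 10x Visium slide, where each spot captures poly(A) RNA from the tissue above it. No unwounded skin was analysed here, and all 3 sections share the strain and the wound. With 1 section per day, a difference between days has no replicate check and cannot be told apart from a difference between mice, sections or planes of cut.

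SPRR proteins are precursors of the cornified envelope, the protein shell that replaces the membrane of dying keratinocytes. Transglutaminases crosslink their glutamine- and lysine-rich ends to loricrin, involucrin and other envelope proteins. The genes lie in the epidermal differentiation complex. In resting interfollicular epidermis several of them are low, and wounding, irritation and barrier damage are known to induce them. *Sprr1a* is also known from regenerating neurons and stressed heart muscle.

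The 15 Sprr genes lie within 284.7 kb of mouse chromosome 3 (chr3:92215799-92500493, GRCm38, GENCODE annotation). *Sprr2d* (ENSMUSG00000042212) is at chr3:92339140-92340873 and *Sprr2h* (ENSMUSG00000046259) at chr3:92385685-92387324, both on the plus strand. *Sprr1b* (ENSMUSG00000048455) is at chr3:92436809-92438789, *Sprr3* (ENSMUSG00000045539) at chr3:92456502-92458720 and *Sprr1a* (ENSMUSG00000050359) at chr3:92483952-92485895, all on the minus strand. None of the 5 overlaps another annotated gene. The 250 bases before the RefSeq transcription start of each member (GRCm38.p6, own strand, 5′ to 3′) are shown because the members behaved differently between days, with each TGANTCA, the word bound by AP-1 factors, in capitals.
*Sprr1a*, chr3:92485882-92486131, minus strand: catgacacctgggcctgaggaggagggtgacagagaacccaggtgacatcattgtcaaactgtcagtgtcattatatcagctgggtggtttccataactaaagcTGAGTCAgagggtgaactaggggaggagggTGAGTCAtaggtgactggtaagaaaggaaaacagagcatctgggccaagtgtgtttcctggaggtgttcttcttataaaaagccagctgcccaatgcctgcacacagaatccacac
*Sprr1b*, chr3:92438780-92439029, minus strand: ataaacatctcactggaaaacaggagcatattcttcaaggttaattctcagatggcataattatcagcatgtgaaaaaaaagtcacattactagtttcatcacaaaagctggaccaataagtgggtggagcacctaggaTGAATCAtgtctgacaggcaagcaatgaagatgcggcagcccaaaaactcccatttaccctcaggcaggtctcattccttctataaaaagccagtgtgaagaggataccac
*Sprr2d*, chr3:92338890-92339139, plus strand: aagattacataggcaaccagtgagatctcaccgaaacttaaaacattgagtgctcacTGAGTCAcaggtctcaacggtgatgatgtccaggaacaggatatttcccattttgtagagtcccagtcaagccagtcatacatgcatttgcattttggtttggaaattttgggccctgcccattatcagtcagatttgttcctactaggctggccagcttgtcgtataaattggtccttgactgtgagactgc
*Sprr2h*, chr3:92385435-92385684, plus strand: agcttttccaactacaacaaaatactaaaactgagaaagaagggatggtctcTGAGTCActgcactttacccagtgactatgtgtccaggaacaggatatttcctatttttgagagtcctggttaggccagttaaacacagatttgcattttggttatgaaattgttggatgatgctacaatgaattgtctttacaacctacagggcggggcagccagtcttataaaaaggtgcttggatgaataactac
*Sprr3*, chr3:92458721-92458970, minus strand: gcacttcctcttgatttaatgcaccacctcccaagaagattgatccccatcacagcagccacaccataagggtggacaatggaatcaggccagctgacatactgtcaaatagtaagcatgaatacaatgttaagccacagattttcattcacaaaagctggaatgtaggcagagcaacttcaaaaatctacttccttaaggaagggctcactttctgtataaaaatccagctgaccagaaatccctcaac
Both strands were searched for 3 words. TGANTCA was found 2 times in *Sprr1a*, at 146 and 116 bases before the start, and 1 time each in *Sprr1b* (111 bases), *Sprr2d* (193) and *Sprr2h* (198). It was not in the *Sprr3* window. It was in 9 of the 14 Sprr promoters listed by RefSeq and in 6.75% of all 32817 promoter windows of the same length. TATAAA was in 10 of the 14 Sprr windows, all 5 members included, and in 12.4% of all windows. ATTTGCAT, the octamer word bound by POU factors, lay 108 bases before the start of *Sprr2d* and 109 bases before that of *Sprr2h*. It was in 7 of the 14 Sprr windows, all of Sprr2 genes, against 1.60% of all windows, and in neither *Sprr1* gene. In these 7 windows it lay 108 to 112 bases before the start. The Sprr2 genes are similar copies, so their windows are not independent, and no enrichment is read from the shares of any of the 3 words. A match of letters is a description of the window, not a bound site, and its relation to the day levels was not tested.

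Similar copies could share reads, so the last 500 bases of each transcript were cut into windows of 91 bases and looked up in all other mouse transcripts. For each of the 5 members, 0 of 410 windows occurred in another gene. The closest pair among the members was *Sprr2d* and *Sprr2h*, with 71.9% identity over these bases, and *Sprr1a* and *Sprr1b* had 64.4%. *Sprr2a1* and *Sprr2a2* shared 410 of 410 windows with other Sprr2a genes and *Sprr2a3* 228 of 410. Counts of these 3 genes are therefore uncertain, and *Sprr2a1* and *Sprr2a2* also overlap each other in the annotation.

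The sections held 664, 549 and 697 spots that the deposited positions mark as tissue, at Day 3, Day 7 and Day 14, with 1772259, 4442962 and 4611723 unique molecular identifiers (UMIs, captured molecules). The median marked spot held 1513, 6687 and 4827 UMIs. The 4328, 4443 and 4295 spots outside the mark held 1703210, 6457066 and 4715272 UMIs, so the mark did not hold all RNA of a section, and the summed muscle genes were 1.08 to 1.13 higher on the log2 scale outside than under it. All 12 genes of the epidermal list (keratins *Krt5*, *Krt14*, *Krt1* and *Krt10* and other epidermal genes) and all 10 muscle genes had UMIs under the mark on each day. All spot barcodes are shared by the 3 slides, as they mark array positions, and a spot can hold several cells. Levels are UMIs per 1000000 UMIs of the pooled spots (CPM), with exact 95% Poisson intervals in brackets. These and all other intervals cover counting error only, and spots of 1 section are not replicates. In sections, fewer cells of a type and less RNA per cell cannot be told apart.

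*Sprr1a*, the member with most UMIs, was lowest at Day 7 and highest at Day 14, whereas *Sprr1b*, *Sprr2d* and *Sprr2h* were present at Day 3 and Day 7 and nearly or wholly absent at Day 14. *Sprr3*, best known from the esophagus and other internal lining epithelia, had 0 UMIs under and outside tissue in all 3 sections. Its upper limit under tissue, set by 3 UMIs, was 1.69 CPM at Day 3, 0.675 CPM at Day 7 and 0.651 CPM at Day 14. Under the mark the Day 14 section had the highest summed level of the 5 members, with 321 CPM against 245 CPM at Day 3 and 161 CPM at Day 7. Over the whole slide the sum was lower at Day 14 than at Day 3 (log2 difference -0.26), and per 100 *Krt10* UMIs it was lowest at Day 14, with 23.3 against 42.1 at Day 3 and 36.1 at Day 7.

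*Sprr1a* had 288 UMIs under tissue at Day 3, 343 at Day 7 and 1467 at Day 14. Its level was 163 CPM (144 to 182) at Day 3, 77.2 CPM (69.2 to 85.8) at Day 7 and 318 CPM (302 to 335) at Day 14, and the 3 intervals did not overlap. On the log2 scale the difference of Day 7 from Day 3 was -1.07 (-1.30 to -0.84), that of Day 14 from Day 7 was 2.04 (1.87 to 2.22) and that of Day 14 from Day 3 was 0.97 (0.79 to 1.16). Without the 5 marked spots richest in the members, the difference of Day 7 from Day 3 was -0.54. Over all spots of the slides, marked or not, Day 14 was 1.24 above Day 7 and 0.41 above Day 3.

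*Sprr1b*, a squamous differentiation gene induced by stress, had 100, 221 and 12 UMIs on the 3 days. Its level was 56.4 CPM (45.9 to 68.6) at Day 3, 49.7 CPM (43.4 to 56.8) at Day 7 and 2.60 CPM (1.34 to 4.55) at Day 14. Day 3 and Day 7 did not differ beyond counting error, with a log2 difference of -0.18 (-0.53 to 0.17), and with the mean of the single spots' CPM in place of the pooled level this difference was 0.89. Day 14 was 19.1-fold below Day 7, a log2 difference of -4.26 (-5.23 to -3.42), and 21.7-fold below Day 3.

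*Sprr2d*, of the Sprr2 group of short envelope precursors, had 16 UMIs at Day 3, 83 at Day 7 and 0 at Day 14. Its level was 9.03 CPM (5.16 to 14.7) and then 18.7 CPM (14.9 to 23.2), a log2 difference of 1.05 (0.27 to 1.92). Day 14 was 28.7-fold lower than Day 7 with 3 UMIs in place of the count of 0, and the exact upper limit of the log2 difference was -4.51. *Sprr2h* had 31, 69 and 0 UMIs, with 17.5 CPM (11.9 to 24.8) at Day 3 and 15.5 CPM (12.1 to 19.7) at Day 7. The Day 3 and Day 7 levels of *Sprr2h* did not differ beyond counting error (log2 difference -0.17, -0.80 to 0.49). Its Day 14 level was 23.9-fold lower than Day 7 with 3 UMIs in place of 0, with an upper limit of -4.24 for the log2 difference. With the mean of the single spots' CPM, the difference of Day 7 from Day 3 was 0.17 for *Sprr2d* and 0.62 for *Sprr2h*, so the sign for *Sprr2h* and the size for *Sprr2d* depended on how spots were weighted. Both Sprr2 members had no UMI under tissue at Day 14.

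**Figure D1:**
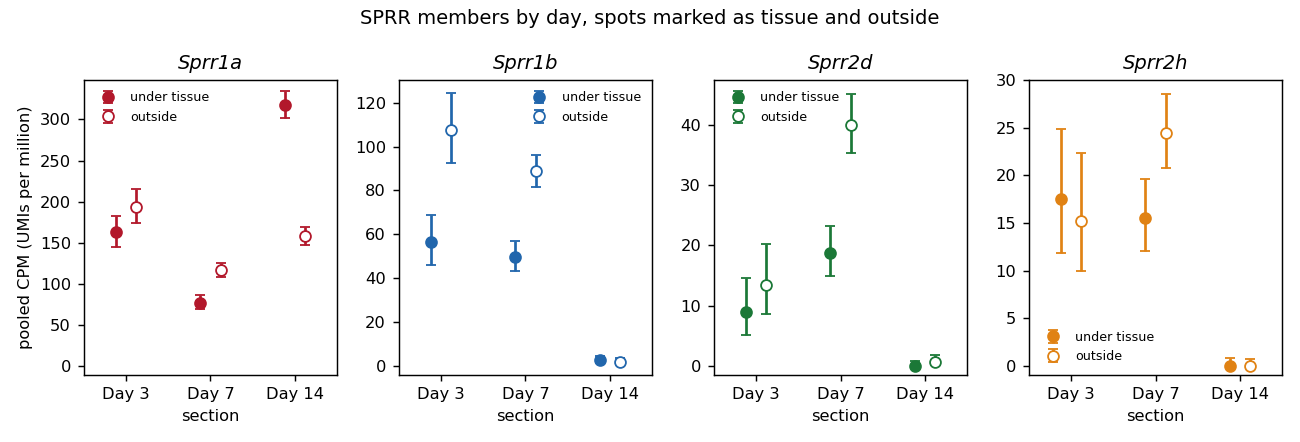
Pooled level (CPM, linear axis that includes 0, a separate scale in each panel) of the 4 detected members at Day 3, Day 7 and Day 14, in spots marked as tissue (filled) and outside (open), with exact 95% Poisson intervals. *Sprr1a* under tissue goes from 163 to 77.2 to 318 CPM, while *Sprr1b* ends at 2.60 CPM and *Sprr2d* and *Sprr2h* at 0 at Day 14.

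The members' count of changes was read against all genes. A difference of at least 2-fold in the pooled level was counted over genes with at least 50 UMIs in the 2 sections. From Day 3 to Day 7, 8.04% of 10541 genes were higher and 6.49% lower, and of the 4 members counted, 1 was higher (*Sprr2d*) and 1 lower (*Sprr1a*). From Day 7 to Day 14, 10.9% of 11746 genes were higher and 7.34% lower, and of the 4 members counted 1 was higher (*Sprr1a*) and 3 lower. From Day 3 to Day 14, 14.4% of 10955 genes were higher and 6.83% lower, and of the 2 members counted 0 were higher and 1 lower (*Sprr1b*). The median log2 difference of all these genes was 0.04, 0.13 and 0.18 for the 3 comparisons, and that of the counted members was -0.18, -4.42 and -1.73. From Day 7 to Day 14, *Sprr2d* and *Sprr2h* passed the 50 UMI minimum through Day 7 alone, so they could only be called lower. Their values there are bounds with 3 UMIs in place of 0. The -1.73 lies between *Sprr1a* (0.97) and *Sprr1b* (-4.44), the 2 members counted, and is the value of neither. As the members were chosen with these contrasts known, nothing is read from the counts.

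The other Sprr genes were nearly or wholly absent at Day 14, as *Sprr2d* and *Sprr2h* were. *Sprr2e*, *Sprr2f* and *Sprr2i* together had 4 UMIs at Day 3, 74 at Day 7 and 0 at Day 14. Their level was 7.38-fold higher at Day 7 than at Day 3, a log2 difference of 2.88 (1.47 to 4.80) that rests on 4 UMIs at Day 3. With 3 UMIs in place of 0 it was 25.6-fold lower at Day 14 than at Day 7, with an upper limit of -4.34 for the log2 difference. *Sprr2a1*, *Sprr2a2*, *Sprr2a3* and *Sprr2b* went the other way early, with 13 UMIs at Day 3, 0 at Day 7, although the Day 7 section was deeper, and 1 at Day 14. *Sprr2k* and *Sprr2j-ps* had 2 UMIs each, both at Day 7, and *Sprr4* had 0.

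Taking all Sprr UMIs of a section as 100%, *Sprr1a* made up 63.7% (59.1 to 68.2, exact binomial interval) of 452 UMIs at Day 3, 43.2% (39.7 to 46.7) of 794 at Day 7 and 99.1% (98.5 to 99.5) of 1480 at Day 14. *Sprr1b* made up 22.1% (18.4 to 26.2), 27.8% (24.7 to 31.1) and 0.811% (0.420 to 1.41). *Sprr2d* made up 3.54% (2.04 to 5.68) at Day 3 and 10.5% (8.41 to 12.8) at Day 7, and these intervals did not overlap. The method tags 3′ ends, so UMIs were not divided by transcript length, and capture may still differ between transcripts.

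**Figure D2:**
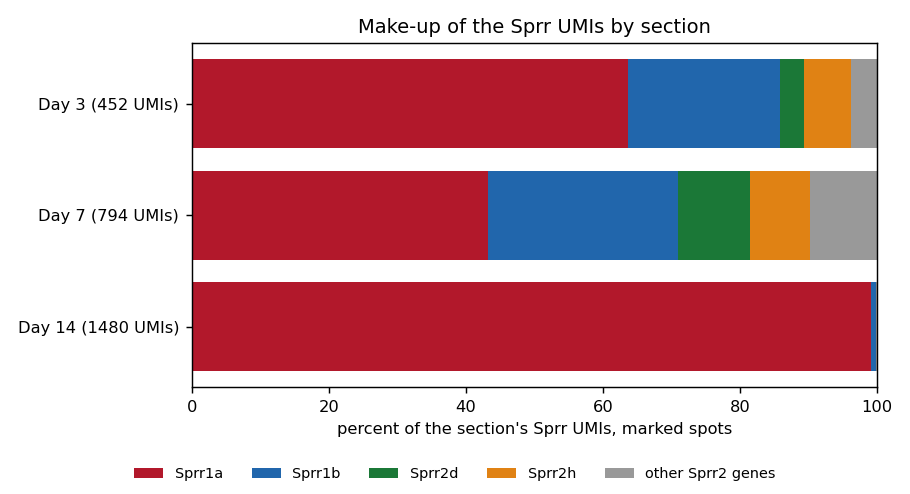
Share of each gene in all Sprr UMIs of the marked spots (percent, horizontal axis), 1 bar per section, with Sprr2 genes other than *Sprr2d* and *Sprr2h* in grey. *Sprr1a* fills 63.7%, 43.2% and 99.1% of the bars, and the Sprr2 genes and *Sprr1b* are visible at Day 3 and Day 7 while at Day 14 a thin band of *Sprr1b* (0.811%) remains.

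The amount of epidermis in a section can set a CPM level, so the members were also read per keratin. *Krt10* marks suprabasal, differentiating keratinocytes and *Krt14* basal ones. Marked spots held 1033, 1986 and 6357 *Krt10* UMIs and 4572, 4235 and 9921 *Krt14* UMIs on the 3 days. *Sprr1a* had 27.9 UMIs (24.4 to 31.8) per 100 *Krt10* UMIs at Day 3, 17.3 (15.4 to 19.4) at Day 7 and 23.1 (21.8 to 24.4) at Day 14. Per 100 *Krt14* UMIs it had 6.30 (5.57 to 7.10), 8.10 (7.23 to 9.04) and 14.8 (14.0 to 15.6). Relative to *Krt10*, *Sprr1a* at Day 14 was thus slightly below Day 3 (log2 difference -0.27, -0.48 to -0.07), and relative to *Krt14* it was above (1.23, 1.04 to 1.42). The direction between Day 3 and Day 7 also depended on the keratin: it was -0.69 per *Krt10*, 0.36 per *Krt14* and -1.07 per *Krt5*, the partner of *Krt14* in basal cells.

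*Sprr1b* had 9.68 UMIs (7.80 to 11.9) per 100 *Krt10* UMIs at Day 3, 11.1 (9.64 to 12.8) at Day 7 and 0.189 (0.0975 to 0.330) at Day 14. Per 100 *Krt14* UMIs it had 2.19 (1.78 to 2.67), 5.22 (4.54 to 5.98) and 0.121 (0.0625 to 0.211). Day 14 was 59.0-fold below Day 7 per *Krt10* and 43.1-fold below it per *Krt14*, so the gap was wider than in CPM. *Sprr2d* had 1.55 UMIs (0.882 to 2.53) per 100 *Krt10* UMIs at Day 3 and 4.18 (3.31 to 5.21) at Day 7, and *Sprr2h* had 3.00 (2.03 to 4.29) and 3.47 (2.69 to 4.42). With 3 UMIs in place of 0, *Sprr2d* was 88.6-fold and *Sprr2h* 73.6-fold lower per *Krt10* at Day 14 than at Day 7, values given without an interval.

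**Figure D3:**
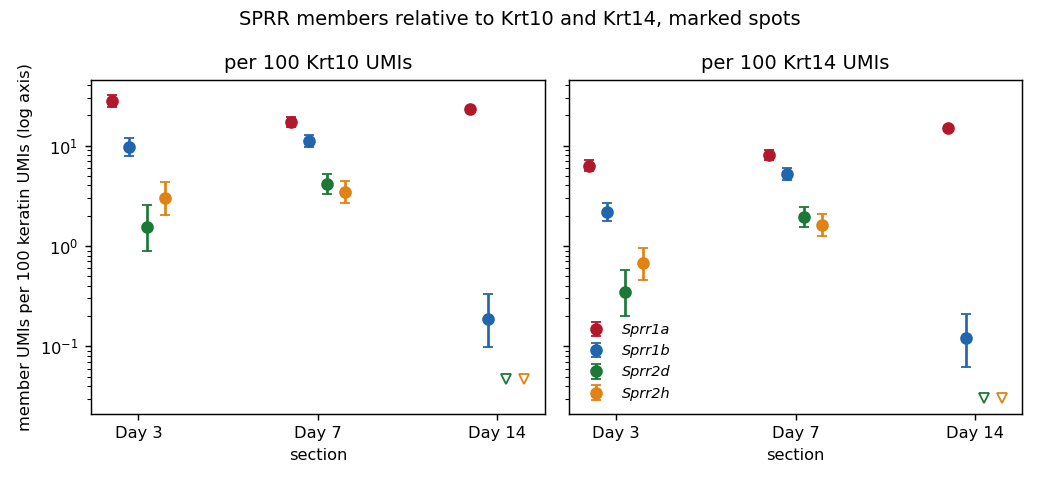
UMIs of each member per 100 *Krt10* UMIs (left) and per 100 *Krt14* UMIs (right) in marked spots, on a log axis, with exact 95% intervals; open triangles stand at the 3 UMI limit where a member had 0 UMIs. *Sprr1a* stays between 17.3 and 27.9 per 100 *Krt10* UMIs on the 3 days, while *Sprr1b* falls to 0.189 and both Sprr2 members to 0 at Day 14.

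Within the Day 3 section many of the members' UMIs lay in few spots. The richest marked spot held 54 of the 435 UMIs of the 5 members, and 14 spots held 50% of them. At Day 7 the richest marked spot held 9 of 716 UMIs and 86 spots were needed for 50%, and at Day 14 the richest held 47 of 1479 and 79 spots were needed. The richest 5 spots held 34.7%, 5.87% and 9.87% of the UMIs at Day 3, Day 7 and Day 14. Of the 157 spots with a member at Day 3, 132 touched another such spot, against 326 of 331 at Day 7 and 427 of 435 at Day 14. The touching share was thus lowest at Day 3, and it also depends on how many spots hold a UMI.

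**Figure D4:**
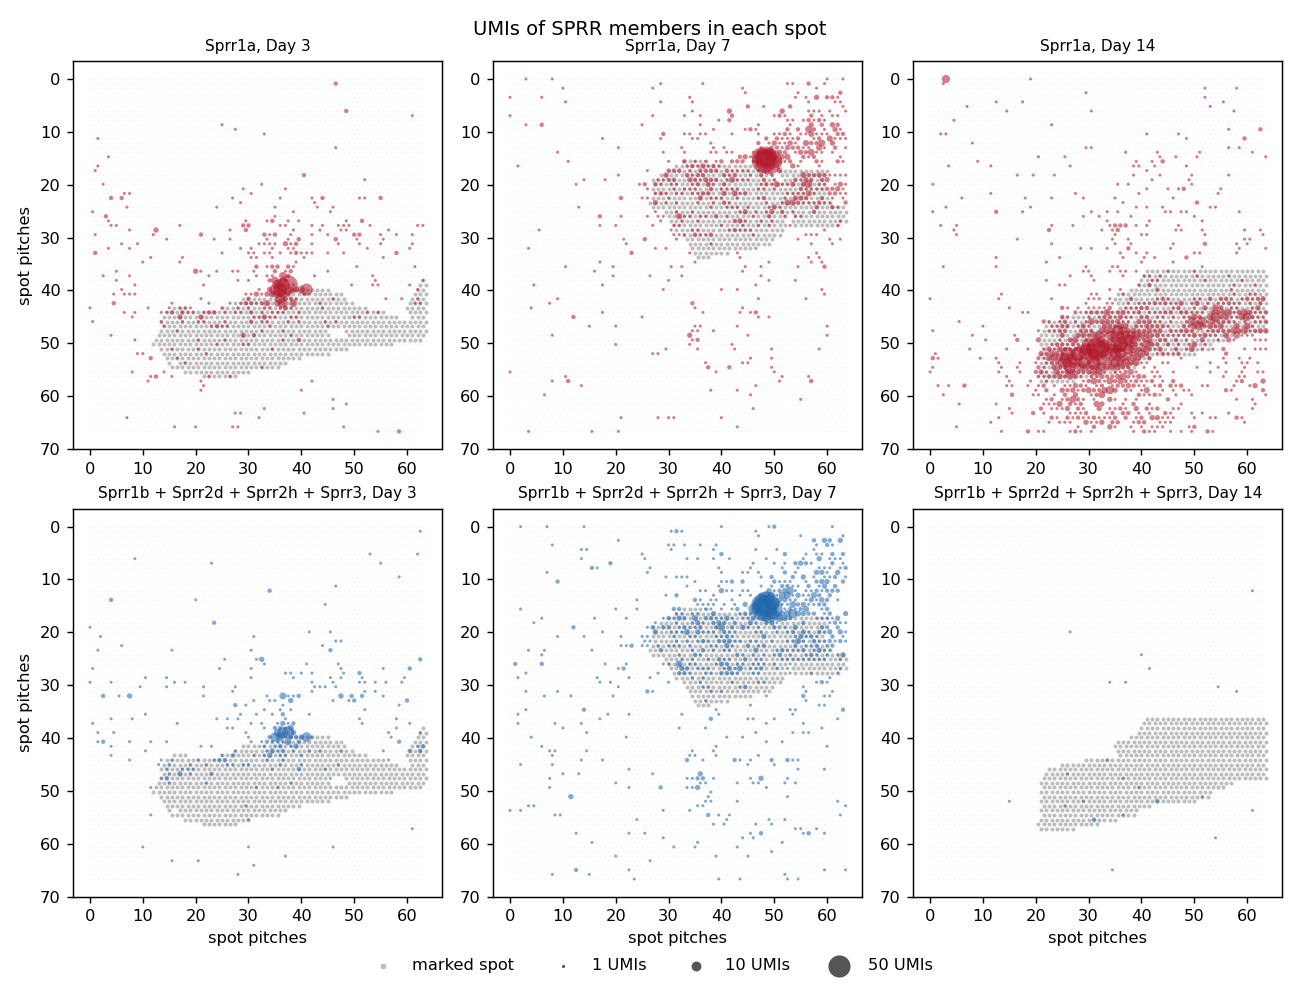
Each section on its slide, in spot pitches (the distance between neighbouring spot centres) on both axes, with marked spots in grey and the area of a coloured disc proportional to the UMIs of *Sprr1a* (upper row) or of the other 4 members together (lower row). At Day 3 the largest discs lie at the upper edge of the marked tissue, where the richest spot holds 38 *Sprr1a* UMIs, at Day 7 the largest lie in 4 touching spots just outside the mark, and at Day 14 *Sprr1a* covers a broad field while the other members have 12 UMIs under the mark.

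Spots with at least 200 UMIs and at least 2 times the section's pooled level of the epidermal list were called epidermal-rich, and there were 39, 44 and 36 of them on the 3 days. At Day 3 *Sprr1a* was at 631 CPM (537 to 738) in these and 85.4 CPM (71.4 to 101) elsewhere under the mark, a log2 difference of 2.89 (2.54 to 3.23). At Day 7 it was at 125 CPM (87.0 to 174) against 74.0 CPM (66.0 to 82.7), a difference of 0.76 (0.21 to 1.26). At Day 14 the order was the opposite, with 173 CPM (137 to 216) in epidermal-rich spots and 334 CPM (317 to 352) elsewhere, a difference of -0.95 (-1.29 to -0.62). Within the epidermal-rich spots *Sprr1a* was 3.64-fold lower at Day 14 than at Day 3, and Day 14 and Day 7 did not differ beyond counting error (log2 difference 0.47, -0.12 to 1.09). The cut followed each section's own epidermal list level, which was 10095, 4952 and 12822 CPM. The epidermal-rich spots of different days were therefore not picked at the same absolute level. With 3 times the pooled level as the cut, the Day 14 difference of epidermal-rich spots from the rest was -2.20, and with 1.5 times it was -0.50.

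The epidermal-rich spots of Day 3 were of 2 kinds. In the 18 that were also rich in the wound keratins (*Krt6a*, *Krt6b*, *Krt16* and *Krt17*, made by activated keratinocytes at wound edges), *Sprr1a* had 140 UMIs and 1649 CPM (1387 to 1946). In the other 21 it had 18 UMIs and 109 CPM (64.5 to 172), a log2 difference of 3.92 (3.21 to 4.72). The other 4 members had 63 UMIs against 7, or 742 CPM (570 to 950) against 42.3 CPM (17.0 to 87.2), a difference of 4.13 (3.00 to 5.50). The 18 spots held 61 *Krt10* UMIs and the 21 spots 606, so *Sprr1a* had 230 UMIs per 100 *Krt10* UMIs in the former and 2.97 in the latter. These 18 spots held 48.6% of the section's *Sprr1a* UMIs. At Day 7 only 11 epidermal-rich spots were rich in wound keratins, with 359 CPM (185 to 627) of *Sprr1a* from 12 UMIs against 93.2 CPM (59.1 to 140) in the other 33. At Day 14 no epidermal-rich spot was rich in wound keratins. This cut was 2 times each section's own pooled wound keratin level, which was 1696, 506 and 1133 CPM on the 3 days. At Day 14 *Krt17* had 3969 of the 5223 wound keratin UMIs. The numbers of such spots are therefore not comparable between days.

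The 20 Day 3 spots richest in the members lay near the wound bed. Their median distance to the nearest spot rich in wound bed genes (*Postn*, *Tnc*, *Fn1* and others) was 1.0 spot pitch, and 15 of the 20 lay within 2 pitches. The 39 epidermal-rich spots of that section had a median distance of 7.00 pitches, with 43.6% within 2 pitches. At Day 7 only 4 spots passed the rule for the wound bed, so no such distance is given. At Day 14, with 51 wound bed spots, 0 of the 20 richest spots and 1 of the 36 epidermal-rich spots lay within 2 pitches, with median distances of 6.96 and 8.60 pitches. All 157 spots with a member at Day 3 had a median distance of 4.36 pitches, and all 435 at Day 14 one of 3.61 pitches. A spot that was itself rich in wound bed genes counted as distance 0. At Day 3 spots rich in both epidermal and wound bed genes held 87 of the 435 UMIs of the members.

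At Day 14 *Sprr1a* was highest in spots rich in hair follicle genes (*Krt25*, *Krt27*, *Krt28*, *Krt71*, *Krt73* and *Tchh*, of the inner root sheath). The 6 genes had 5 UMIs at Day 3, 13 at Day 7 and 21665 at Day 14. In the 35 hair-rich spots, none of which was epidermal-rich, *Sprr1a* was at 714 CPM (638 to 796), against 288 CPM (271 to 305) in the 626 spots that were neither and 173 CPM in the epidermal-rich ones. The hair-rich spots held 22.0% of the section's *Sprr1a* UMIs, and 10 of the 20 spots richest in *Sprr1a* were among them. *Krt10* was at 495 CPM (432 to 565) in them, from 224 UMIs, and at 769 CPM (741 to 797) in the spots that were neither. Without the hair-rich spots, *Sprr1a* at Day 14 was still above Day 7 (log2 difference 1.84) and Day 3 (0.75). Hair-rich meant at least 200 UMIs and at least 2 times the section's pooled level of the 6 genes, which was 4698 CPM at Day 14. Spots below this cut can still hold follicle RNA, so leaving out the hair-rich spots does not remove all of it. The split by hair follicle genes and that by wound keratins were made after the members' values had been seen, and the part of growing follicles in the Day 14 level was not tested.

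**Figure D5:**
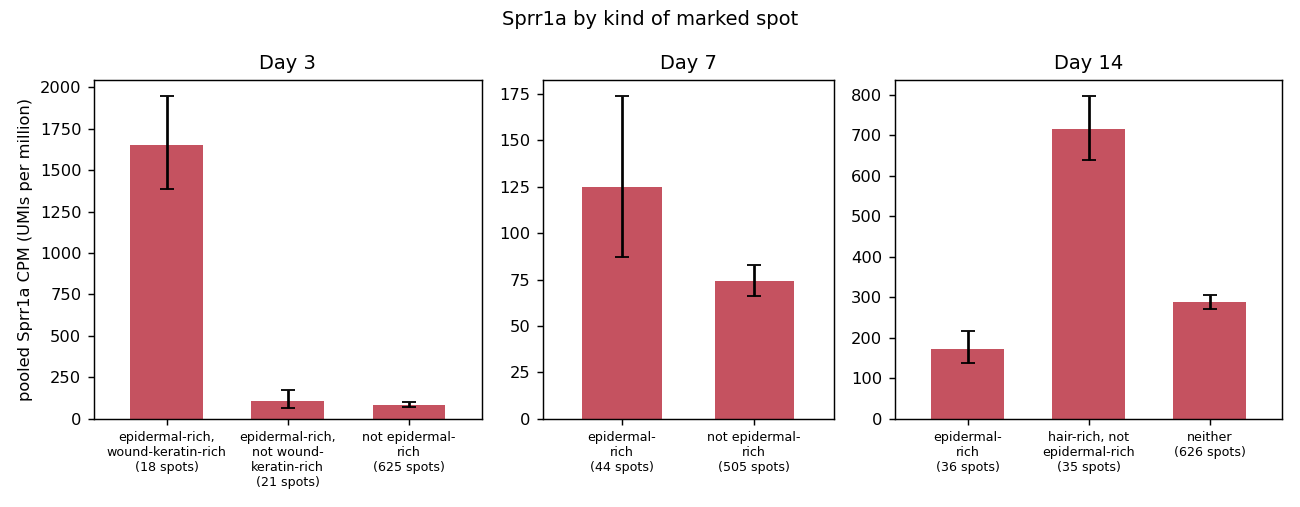
Pooled *Sprr1a* level (CPM, bars from 0, a separate scale for each day) in kinds of marked spots, with exact 95% Poisson intervals and the number of spots below each bar. At Day 3 the 18 epidermal-rich spots with wound keratins reach 1649 CPM, and at Day 14 the 35 hair-rich spots reach 714 CPM while epidermal-rich spots are at 173 CPM.

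Shares of spots were compared after each marked spot was thinned to 1000 UMIs, which left out 238 shallower spots at Day 3, 24 at Day 7 and 18 at Day 14. The median spot kept held 2373, 7128 and 4948 UMIs. A *Sprr1a* UMI was then present in 8.69% of 426 spots at Day 3, 6.67% of 525 at Day 7 and 22.5% of 679 at Day 14 (17.3%, 39.0% and 62.4% of all marked spots before thinning). Muscle-rich spots that were not epidermal-rich were taken for comparison, on the assumption, not shown here, that muscle lacks the gene. Their median depth was 1821, 2450 and 2942 UMIs. Their thinned shares were 1.65% (0.201 to 5.84), 4.55% (1.25 to 11.2) and 5.80% (2.54 to 11.1). At Day 7 the share of all spots (4.69 to 9.15) could not be told apart from that of muscle-rich spots, which rests on 4 of 88 spots, whereas at Day 14 the share of all spots (19.4 to 25.9) lay above it. *Sprr1b* was present in 4.46%, 6.10% and 0.295% of thinned spots, against 1.65%, 4.55% and 0% in muscle-rich ones, where 0 of 138 allows a share of up to 2.17%.

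Outside the marked tissue *Sprr1a* and *Sprr1b* were higher than under it at Day 3 and Day 7, as were *Sprr2d* and *Sprr2h* at Day 7, and *Sprr1a* was lower at Day 14. *Sprr1a* had 330, 753 and 744 UMIs outside, at 194 CPM (173 to 216), 117 CPM (108 to 125) and 158 CPM (147 to 170). Its Day 3 excess lay far from the mark, at 346 CPM (289 to 410) from 10 pitches on. Within 5 pitches and from 5 to 10 pitches it was at 149 CPM, not above the 163 CPM under the mark. The 2828 far spots held 384731 UMIs in all, with at most 3 of *Sprr1a* in a spot. The log2 difference of outside from under was 0.25 (0.02 to 0.49) at Day 3, 0.60 (0.41 to 0.78) at Day 7 and -1.01 (-1.14 to -0.88) at Day 14. For *Sprr1b* it was 0.93 (0.57 to 1.296) and 0.84 (0.61 to 1.07) on the first 2 days, and for *Sprr2d* at Day 7 it was 1.097 (0.73 to 1.47) and for *Sprr2h* 0.66 (0.24 to 1.09). At Day 3 the intervals of *Sprr2d* (0.58, -0.40 to 1.60) and *Sprr2h* (-0.20, -1.01 to 0.60) held 0. At Day 14 *Sprr1b* had 9 UMIs outside and *Sprr2d* 3, so they were low over the whole slide. The epidermal list itself had outside-to-under differences of -0.12, -0.06 and -0.93, and *Krt10* of 0.36, 0.30 and -0.64. Between epidermal-rich spots outside and under the mark, *Sprr1a* differed by -0.02 (-0.35 to 0.31) at Day 3, 1.69 (1.19 to 2.23) at Day 7 and 1.04 (0.54 to 1.54) at Day 14.

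Much of the Day 7 signal outside the mark came from 4 spots that touch each other and lie 1.0 to 1.73 pitches from marked tissue. They held 145, 119, 109 and 74 UMIs of the members, against 26 in the next richest outside spot and 9 in the richest marked one. Together they had 447 of the 1742 outside UMIs of the members, or 25.7%. Their summed level was 25673 CPM, made of 205 *Sprr1a*, 113 *Sprr1b*, 87 *Sprr2d* and 42 *Sprr2h* UMIs. In the same 4 spots *Krt10* had 9 UMIs, *Krt14* 139, *Krt6b* 106 and *Krt16* 110, while *Lor* had 10 and *Krt5* 16. These 4 spots were picked with their counts in view. Without them the Day 7 log2 difference of outside from under for the sum was 0.32 in place of 0.74. At 10 pitches or more from the mark it was -0.36, so the excess at Day 7 lay near the tissue, at 555 CPM (521 to 591) within 5 pitches and 126 CPM (114 to 138) from 10 pitches on. At Day 3 the order was the opposite, with 251 CPM (215 to 291) within 5 pitches and 593 CPM (518 to 675) from 10 pitches on, where *Krt14* was higher, at 3758 against 2076 CPM, and *Krt10* lower, at 811 against 975 CPM.

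Across marked spots with at least 500 UMIs, *Sprr1a* and *Sprr1b* had a Pearson correlation of 0.39 at Day 3 (520 spots) and 0.18 at Day 7 (539 spots). *Sprr2h* had a correlation of 0.22 with *Sprr1a* and 0.27 with *Sprr1b* at Day 3. At Day 7 the correlations of *Sprr2d* with *Sprr1a*, *Sprr1b* and *Sprr2h* were 0.06, -0.02 and 0.11. These points share a library, spot depth and tissue makeup, the counts per spot are mostly 0 or 1, and the values are a description without a test.

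The genes with no Sprr symbol whose pattern over spots was most like the summed members differed between sections. At Day 3 (520 spots, 11017 genes) they were *Krt6a* (Pearson r = 0.47), *Krt16* (0.45), *Krt14*, *Gjb2*, *Sfn*, *Krtdap*, *Endou*, *Krt17*, *Krt6b* and *2310046K23Rik* (0.40). All 4 wound keratins were among the 10, and *Gjb2* encodes a gap junction protein of keratinocytes. At Day 7 (539 spots, 12994 genes) they were *Krt5* (0.34), *Lgals7* (0.34), *Crct1*, *Fabp4*, *Fasn*, *Rptn*, *Krt14*, *Calm4*, *Spink5* and *Cfd* (0.31), of which *Fabp4* and *Cfd* are fat cell genes. At Day 14 (689 spots, 13321 genes) those reported here were *Krt17* (0.45), *Lgals7* (0.44), *Scd1*, *Krt71*, *Krt27*, *Krt25*, *Tchh*, *Krt5* and *S100a3* (0.40), among them *Krt71*, *Krt27*, *Krt25* and *Tchh* of the inner root sheath list and *Scd1*, a lipid desaturase of sebaceous glands. With Spearman correlation 5, 7 and 8 of the 10 were shared on the 3 days.

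Other genes of cornification gave the setting of the SPRR levels. From Day 7 to Day 14, 10 of 13 counted envelope proteins were at least 2-fold higher and 1 lower. Their median log2 difference was 1.47, against 0.13 for all genes. Of the 12 genes of the epidermal list, 11 were at least 2-fold higher and 0 lower, and the summed list was 2.59-fold higher. Whether the envelope genes rose beyond the epidermal RNA of the section was not tested. *Lor*, the main envelope protein loricrin, was at 1061, 435 and 1491 CPM at Day 3, Day 7 and Day 14, and *Crct1* at 183, 140 and 388 CPM. *Cdsn*, which holds corneocytes together, was at 94.8, 87.1 and 231 CPM, and *Flg2*, a filaggrin relative, at 111, 43.4 and 235 CPM. The 1 lower gene was *Rptn*, at 27.1, 42.8 and 12.1 CPM. All 7 counted suprabasal genes were at least 2-fold higher at Day 14 than at Day 7 (median 1.62). *Tgm1*, the transglutaminase of keratinocyte membranes, was at 27.1, 11.3 and 48.6 CPM and *Tgm3* at 7.34, 2.03 and 14.1 CPM. *Tgm2* (128, 68.2 and 36.4 CPM) was lowest at Day 14. *Tgm5* had 18, 40 and 44 UMIs, raw counts not scaled to section depth, which was lowest at Day 3, so no rise is read from them. *Sprr1b*, *Sprr2d* and *Sprr2h* were thus lower at Day 14 than at Day 7 while most measured envelope genes and the epidermal list were higher.

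The late cornified envelope genes, neighbours of the Sprr genes in the same complex, held both patterns. Of the 18 counted from Day 7 to Day 14, 14 were at least 2-fold higher and 3 lower. *Lce1m*, *Lce1a1*, *Lce1a2* and *Lce1b*, the 4 with most UMIs, were 1.24 to 2.75 higher on the log2 scale. The 3 lower were *Lce3b*, *Lce3c* and *Lce3f*, named after their values were seen. The 6 Lce3 genes summed to 37.8 CPM (29.3 to 48.0) at Day 3, 107 CPM (97.9 to 117) at Day 7 and 2.39 CPM (1.19 to 4.27) at Day 14, a fall of 45.0-fold from Day 7. The Lce1 genes summed to 809, 637 and 2150 CPM. The 4 SPRR-rich spots outside the Day 7 tissue held 274 Lce3 UMIs and 7 Lce1 UMIs. The Lce3 sum and *Sprr2d* were both highest at Day 7 and lowest at Day 14, and the Lce1 sum and *Sprr1a* were both lowest at Day 7 and highest at Day 14. *Sprr1b* and *Sprr2h* were also lowest at Day 14, but they were not higher at Day 7 than at Day 3. *Sprr1b* was at 49.7 against 56.4 CPM and *Sprr2h* at 15.5 against 17.5 CPM. *Krt10* (583, 447 and 1378 CPM) and the epidermal list (10095, 4952 and 12822 CPM) had the order of days of the Lce1 sum too. The Lce1 and Lce3 sums were formed after the values of the single genes were seen.

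The wound keratins did not move as 1 group. *Krt6b* was at 398, 42.1 and 0.651 CPM, *Krt16* at 619, 212 and 34.5 CPM, *Krt6a* at 485, 147 and 237 CPM and *Krt17*, which is also made in hair follicles, at 193, 105 and 861 CPM. Of the 4 wound keratins, 1 (*Krt17*) was at least 2-fold higher at Day 14 than at Day 7 and 2 (*Krt6b* and *Krt16*) were lower. Of the 5 basal genes, 3 (*Krt14*, *Col17a1* and *Trp63*) were at least 2-fold higher at Day 14 than at Day 7. *Krt14* was at 2580, 953 and 2151 CPM on the 3 days, *Krt5* at 987, 986 and 1903 CPM and *Krt15* at 940, 663 and 1299 CPM.

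Transcription factors known to act on SPRR promoters were fixed as a list of 17. From Day 3 to Day 7, 0 of 13 counted were at least 2-fold higher and 5 lower, and from Day 7 to Day 14, 6 of 15 were higher and 0 lower. *Jund* (359, 332 and 434 CPM), *Junb* (269, 117 and 220 CPM), *Stat3* (88.6, 137 and 144 CPM) and *Fosl2* (123, 93.4 and 160 CPM) had the most UMIs. *Fosl1*, an AP-1 subunit named after its values were seen, had 38, 6 and 3 UMIs, or 21.4, 1.35 and 0.651 CPM. *Klf4*, a barrier factor, was at 153, 54.2 and 151 CPM, lowest at Day 7 as *Sprr1a*, *Krt10* and the epidermal list were. Whether any of them acts on the members was not tested.

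Cells other than keratinocytes also differed between the sections. The 8 neutrophil genes summed to 2062 CPM at Day 3, 119 CPM at Day 7 and 120 CPM at Day 14. The 7 macrophage genes were also highest at Day 3, at 3669.9, 2298 and 920.5 CPM over the 3 days. The 10 wound bed genes (2894, 6909.6 and 1460.2 CPM) and the 5 fibroblast genes (30833, 46557 and 23423 CPM) were highest at Day 7. The muscle list was at 39713, 50700.4 and 58725 CPM, the 5 sebaceous genes at 3514, 2156 and 2355 CPM and the 4 haemoglobin genes at 4442, 401 and 1939.6 CPM. Their part in the SPRR levels was not tested, and with muscle and haemoglobin genes left out of the total the log2 differences of *Sprr1a* between days were -1.06, 2.06 and 0.99.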

How the data were processed

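Spatial transcriptomes of wounded mouse skin (Day 3, Day 7 and Day 14, 1 section each) were analysed. The authors made the deposited raw UMI counts with Space Ranger 1.3.0 on mm10, per the labels' processing notes. The deposited spot positions give the tissue mark. UMIs were summed over marked or unmarked spots and divided by the summed total (CPM). Intervals (95%) were exact Poisson for levels, conditional binomial for ratios and Clopper-Pearson for shares, and normal on the log scale for ratios per keratin between days. No test was made, since a day has 1 section. A count of 0 was set to 3 UMIs in a ratio. The depth per section was 1772259 to 4611723 UMIs under the mark. The members and lists were chosen with earlier results of these data known. Named genes were the members, all other Sprr genes, the 4 genes of each list with most UMIs, the 10 genes most like the members, and genes named after their values were seen, as stated. Of the 10 genes most like the members at Day 14, 1 is not reported here. Gene positions and transcripts were from GENCODE M21 and promoters from RefSeq (14 of 15 Sprr genes matched). Proteins were not used here, so identity was computed between transcripts. The computation of the ratio intervals was checked on simulated Poisson counts for Day 7 over Day 3, where they held the true ratio of 96.3% of 10341 unchanged genes. The intervals assume that same model, and the simulation had no spread between sections, mice or spots. It therefore says nothing of how well the intervals cover such spread. Python 3.11.15, numpy 2.4.6, pandas 2.3.3, scipy 1.17.1, matplotlib 3.10.9, Biopython 1.88 and, for scaling alternatives, R 4.3.3 with edgeR 4.0.16 and DESeq2 1.42.0 were used.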

Additional observations from a re-analysis of the deposited data

Results flagged for a closer look

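The difference of outside from under the tissue mark changed sign between sections, and this change of sign was not tested, as each day has 1 section. For *Sprr1a* the log2 difference was 0.25 at Day 3, 0.60 at Day 7 and -1.01 at Day 14. For the 5 members summed it was 0.43 at Day 3, 0.74 at Day 7 and -1.0002 at Day 14.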

How the results depend on the processing

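Of 312 alternatives over 74 values, 184 left the value the same, 110 moved it and 18 turned its direction. A value with a counting interval was the same when it stayed within that interval. The percentages of all genes and the lists of genes most like the members have no counting interval. They were judged by a fixed ratio to the main value instead. The scaling factors of edgeR and DESeq2 moved no value beyond its interval. No paired analysis was possible because each day has 1 section, and for the same reason no replicate could be left out. The causes were not tested. Alternatives without *Sprr1a*, without hair-rich spots and without the 4 richest outside spots were chosen after seeing the data.

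For the summed members, the log2 difference of Day 7 from Day 3 (-0.61) was -0.16 with the mean of single spots, -0.35 over the whole slide, -0.093 without the 5 richest spots and 0.017 without *Sprr1a*. That of Day 14 from Day 7 (0.99) was 0.53 with the mean of single spots, 0.088 over the slide, 0.78 without hair-rich spots and -5.01 without *Sprr1a*. That of Day 14 from Day 3 (0.39) was -0.26 over the slide, 0.85 without the 5 richest spots, 0.17 without hair-rich spots and -4.99 without *Sprr1a*.

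The sum per 100 *Krt10* UMIs at Day 3 (42.1) was 37.0 without the richest spot and 28.2 without 5. It was 44.4 over the slide at Day 7 (36.1), and at Day 14 (23.3) 21.2 over the slide and 21.1 without the 5 richest spots. Per 100 *Krt14* UMIs it was 11.4 over the slide, 8.57 without the richest spot and 7.54 without 5 at Day 3 (9.51), 25.0 over the slide at Day 7 (16.9) and 13.6 without the 5 richest spots at Day 14 (14.9).

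Against the epidermal list in place of *Krt10*, the log2 differences of the sum were 0.42 in place of -0.22 for Day 7 from Day 3, -0.38 in place of -0.63 for Day 14 from Day 7 (also -0.38 against *Krt1*) and 0.041 in place of -0.86 for Day 14 from Day 3. In place of *Krt14* (0.83, -0.18 and 0.65) they were 0.42, -0.38 and 0.041 against the list and -0.60, 0.044 and -0.56 against *Krt5*. *Sprr1a* turned from -0.27 per *Krt10* to 0.62 per the list for Day 14 from Day 3, and from 0.36 per *Krt14* to -1.07 per *Krt5* and -0.046 per the list for Day 7 from Day 3, where *Sprr1b* turned from 1.25 to -0.18 per *Krt5*.

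Outside against under the mark, the sum at Day 3 (0.43) was 1.27 from 10 pitches, 1.68 from 20 pitches and 0.72 without *Sprr1a*. At Day 7 (0.74) it was -0.36 from 10 pitches, -0.22 from 20 and 0.32 without the 4 richest outside spots, and *Sprr1a* (0.60) was -0.67 and -0.55 at these distances. At Day 14 (-1.0002) it was -1.53, -1.28 and, without *Sprr1a*, -0.032.

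The share of spots with a member's UMI at Day 3 (13.6%) was 7.12% thinned to 500 UMIs, 23.6% thinned to 2000 and 23.6% not thinned. At Day 7 (15.8%) it was 6.12%, 28.9% and 60.3%, and at Day 14 (22.7%) 11.8%, 39.0% and 62.4%. The sum in epidermal-rich spots against the rest was 0.23 at Day 7 (0.71) with the cut at 3 times, and at Day 14 (-0.90) -2.12 at 3 times, -0.48 at 1.5 times and 1.60 without *Sprr1a*. At Day 3, 5 of the 10 genes most like the sum were kept with Spearman correlation.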
